A study of Rattus norvegicus with 4 samples.

Results

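Thyroid hormone reaches and acts on the newborn cortex through a short series of proteins, and 7 genes of that series were examined here. The tissue was the prefrontal cortex of rat pups whose dams had received bisphenol A (BPA). BPA is a synthetic compound of polycarbonate plastics and epoxy resins with hormone-like activity. The 7 genes were taken by gene symbol and comprised the transporter Slco1c1, the deiodinases Dio2 and Dio3, the hormone-binding protein Crym and the hormone-responsive genes Klf9, Hr and Nrgn. Each symbol matched a single row in every library, which gave 7 of the 16044 genes listed in all 4 libraries. Of the 7, 6 had a mean level of at least 1 FPKM and were among the 13070 genes tested, while Dio3 fell below that level.

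The study compared neonatal rats (Wistar of postnatal day 1 in the labels, Wistar Furth of postnatal days 1 to 2 in the methods) whose dams were given 5000 µg BPA per kg of body weight daily by gavage from gestational day 1 to birth with pups of dams given the vehicle, ethanol in corn oil. Polyadenylated RNA was sequenced as 1 library per sex and treatment, named here for its treatment and sex (control male, control female, BPA male, BPA female). The methods describe several pups per sex and treatment, from independent litters, without saying whether a library pooled them or held 1 pup. Within a sex, 1 library stood against 1, without replicates, and such a comparison is of libraries and not of conditions. With the sexes combined, the male and the female library of a treatment served as its 2 samples. The p-values rest on the spread between these libraries, which includes any difference between the sexes. They also draw on a variance estimated from genes of similar level.

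Levels are given as FPKM, in which the fragments of a transcript are divided by its length and by the fragments mapped in the library, so that levels can be compared between genes. Depths recovered from the steps in the FPKM of scarce transcripts were 8951000 to 9251750 fragments. The intervals given for ratios within a pair of libraries are exact 95% binomial intervals on the estimated fragments and cover counting error only. In all 4 libraries the tissue carried the transcripts of cortical excitatory neurons, with the transcription factor gene Neurod6 between 215.55 and 255.27 FPKM. Lists of markers moved between the treatments in both sexes. The summed FPKM of 10 meningeal and vessel wall genes was 467.43 and 607.95 in the control libraries and 211.58 and 144.09 in the BPA libraries, males first. That of 8 striatal genes was 76.12 and 78.12 in the controls and 103.03 and 112.28 with BPA, and that of the olfactory bulb genes was 42.84 and 45.33 against 10.78 and 9.34. Fewer cells of a type and less RNA per cell cannot be told apart in such bulk samples.

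As background, the thyroid gland secretes mainly thyroxine (T4), which must cross the blood-brain barrier before it can act. In the brain, astrocytes convert T4 to the active hormone triiodothyronine (T3), T3 binds nuclear receptors that sit on DNA as partners of retinoid X receptors, and a second deiodinase inactivates both hormones. This supply is known to set the pace of neuronal maturation and myelination around birth.

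Slco1c1 (NCBI Gene 84511) encodes OATP1C1, a carrier of T4 in brain capillaries and astrocytes, and with the sexes combined it differed most between the treatments among the 6 genes tested. Its FPKM was 28.91 in control male, 33.39 in control female, 19.96 in BPA male and 22.29 in BPA female. Both BPA libraries were below both control libraries, as were those of 32.0% of all genes tested. The male and female libraries of a treatment lay closer to each other than to the other treatment. BPA against control came to -31.0% in males (log2 interval -0.70 to -0.37) and to -33.2% in females (-0.74 to -0.42). These rested on 491 against 716 fragments in males and 536 against 800 in females. On the scale of log2(FPKM + 0.5), used for all log2 ratios of BPA to control given here, the ratio was -0.52 in males and -0.57 in females.

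With the sexes combined, limma gave Slco1c1 a log2 ratio of -0.55 (standard error 0.0989, 95% interval -0.79 to -0.31, unadjusted p = 0.00129). Its Benjamini-Hochberg adjusted p over all genes tested was 0.0776, so the difference did not pass the threshold of 0.05. Of all genes tested, 0.750% passed it, 0.122% as higher with BPA and 0.627% as lower, and of the 6 genes here 0 passed. An unadjusted p under 0.05 was found for Slco1c1 alone among the 6, and for 17.6% of all genes tested. The adjusted p of Slco1c1 was 0.0355 with sex as a second term in the model, 0.0404 among genes of at least 5 FPKM and 0.0124 among known genes alone, and in the other alternatives it ran from 0.075 to 0.277. A log2 ratio of -0.5 or lower in both sexes was reached by Slco1c1 and by 3.75% of all genes tested.

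**Figure D1:**
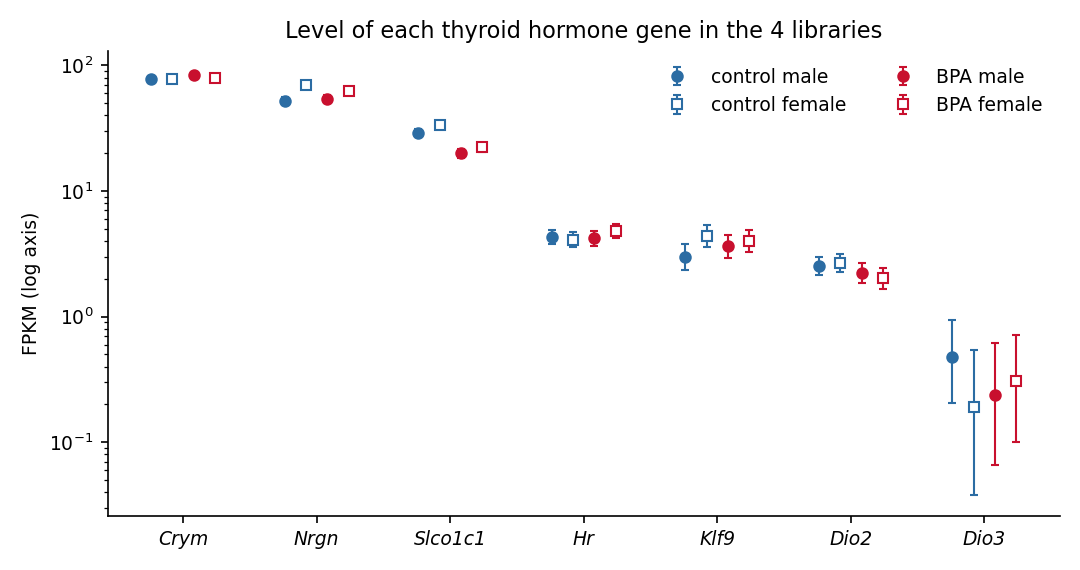
FPKM of the 7 genes (log axis) in the control (blue) and BPA (red) libraries of males (filled circles) and females (open squares), ordered by median level, with exact 95% Poisson intervals on the estimated fragments. Slco1c1 lies at 28.91 and 33.39 in the control libraries and at 19.96 and 22.29 in the BPA libraries, while the points of Crym lie within 77.45 to 83.14 and those of Dio3 rest on 3 to 8 fragments.

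Markers of astrocytes and of the capillary endothelium, the cells in which OATP1C1 is known, were read beside it. Of 9 astrocyte and radial glia markers, 8 had both BPA libraries below both controls, with a median log2 ratio of -0.36 in males and -0.48 in females. Their summed FPKM was 755.20 and 763.58 in the control libraries and 628.94 and 541.98 in the BPA libraries, males first. With limma, 8 of the 9 had an unadjusted p under 0.05 and 0 passed after adjustment. The water channel gene Aqp4 fell short at an adjusted p of 0.0501, with 14.64 and 16.89 FPKM in the controls against 9.18 and 9.53. Of 7 endothelial markers tested, 4 had both BPA libraries below both controls, with medians of -0.27 and -0.49. Their summed FPKM was 105.59 and 123.17 in the controls and 96.77 and 82.30 with BPA, and 0 of the 7 passed limma after adjustment (3 at an unadjusted p under 0.05). Their limma log2 ratios ran from -0.83 for Tek and -0.63 for Kdr, genes of endothelial receptors, to -0.03 for Mfsd2a and -0.01 for Slc2a1, capillary transporter genes that overlapped between the treatments. Over all genes tested, the median log2 ratio was -0.04 in each sex, and 32.0% had both BPA libraries below both controls. The choroid plexus also expresses Slco1c1, and the summed FPKM of 6 of its markers was 1.83 and 3.02 in the controls and 2.67 and 2.09 with BPA, males first. Transthyretin (Ttr), the T4 carrier that the choroid plexus secretes, was not listed in the male libraries and had 0.35 and 0.01 FPKM, the latter the lowest value in the files, in the control and BPA female libraries. Folr1, Kl and Clic6 did not exceed 0.09, 0.13 and 0.15 FPKM in any library. Kcne2, the gene of a potassium channel subunit, had 0.96 and 1.20 FPKM in the controls and 1.68 and 1.56 with BPA. The water channel gene Aqp1 had 0.80 and 1.18 in the controls and 0.72 and 0.35 with BPA. The part of the astrocyte, endothelial and choroid plexus cells in the result for Slco1c1 was not tested.

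**Figure D2:**
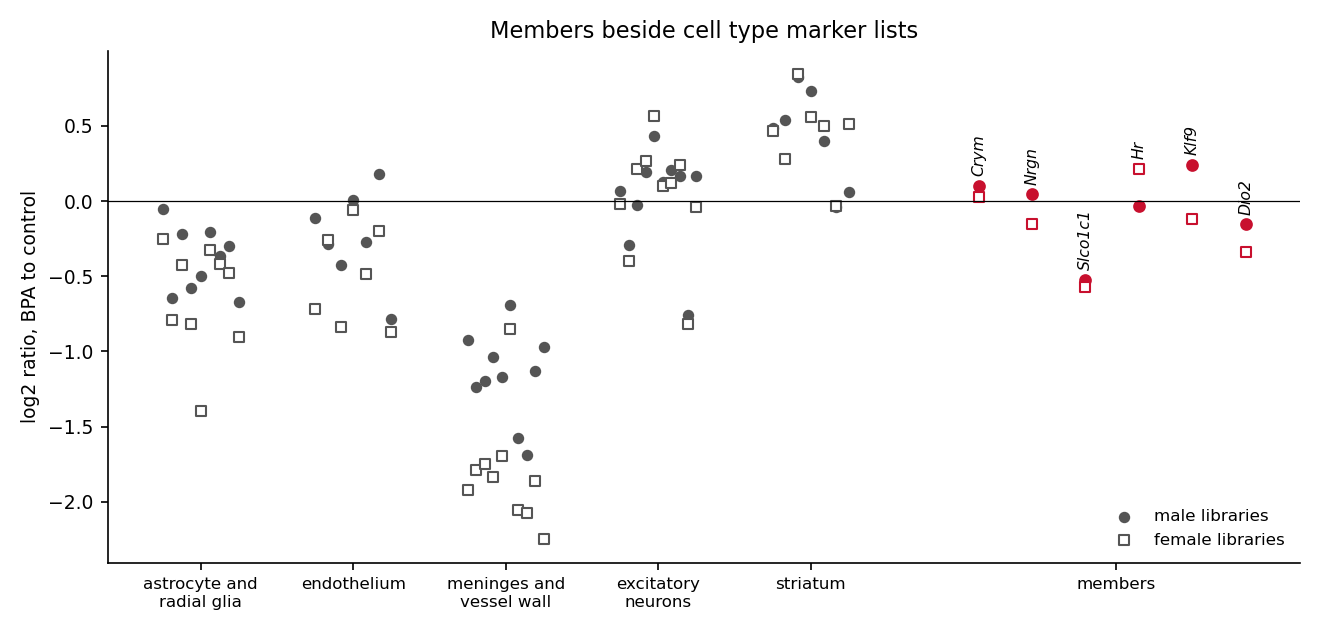
Log2 ratio of BPA to control for marker genes of 5 cell types or regions (grey) and for the 6 genes tested (red), in males (filled circles) and females (open squares), each marker at its own position within the list. Slco1c1, at -0.52 and -0.57, lies within the range of the astrocyte markers, which span -0.67 to -0.05 in males and -1.40 to -0.25 in females. It also lies within that of the endothelial markers (-0.79 to 0.18 and -0.87 to -0.06) and of the excitatory neuron markers (-0.76 to 0.43 and -0.81 to 0.57). The other 5 genes lie between -0.34 and 0.24.

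Dio2 (NCBI Gene 65162) encodes the deiodinase that makes T3 from T4 in astrocytes, and Dio3 (NCBI Gene 29475) the deiodinase that inactivates both hormones. The sequences before their annotated starts are shown because the pair acts on the same hormones in opposite directions and both genes were among the scarcest here. They are the 250 bases upstream of each start in the RefSeq promoter table of the build GRCr8, on the gene's strand, with TATAAA in capitals.
Dio2, chr6:115410595-115410844, minus strand: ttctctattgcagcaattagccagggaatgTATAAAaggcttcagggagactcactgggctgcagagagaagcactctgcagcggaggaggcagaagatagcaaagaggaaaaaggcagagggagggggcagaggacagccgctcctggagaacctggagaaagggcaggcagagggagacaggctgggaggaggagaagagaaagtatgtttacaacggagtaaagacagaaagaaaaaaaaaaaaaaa
Dio3, chr6:135106822-135107071, plus strand: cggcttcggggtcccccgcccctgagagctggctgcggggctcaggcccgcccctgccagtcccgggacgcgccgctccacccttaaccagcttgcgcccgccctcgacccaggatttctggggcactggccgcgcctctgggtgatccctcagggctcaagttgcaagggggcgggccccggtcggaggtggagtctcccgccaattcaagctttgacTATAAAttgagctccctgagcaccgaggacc
The motif TATAAA, searched on the gene's strand, lay 31 bases before the start of Dio3 and 220 bases before that of Dio2. It was found in 8.06% of the 33469 promoters in the table. The window of Dio3 held 68.8% G and C and that of Dio2 49.6%, against a median of 51.2%. The hexamer AGGTCA, the core of the element bound by thyroid hormone receptors, was searched on both strands in the windows of the 4 genes the table holds (Dio2, Dio3, Klf9 and Nrgn) and was in none of them, against 14.1% of all promoters. This says only that these letters are not in these windows.

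The FPKM of Dio2 was 2.55 in control male, 2.69 in control female, 2.24 in BPA male and 2.02 in BPA female. Both BPA libraries were below both controls, as were those of 32.0% of all genes tested. The differences were -12.2% in males (log2 interval -0.54 to 0.16) and -24.9% in females (-0.78 to -0.05). Limma gave a log2 ratio of -0.25 (standard error 0.199, 95% interval -0.73 to 0.23, adjusted p = 0.557), which did not pass. Without a trend in the prior variance, the standard error was 0.0894 and the limma adjusted p was 0.317. The depth behind these values was 113 to 150 fragments per library.

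Dio3 was close to the limit of the depth. Its FPKM was 0.48 in control male, 0.19 in control female, 0.24 in BPA male and 0.31 in BPA female, which stood for 8, 3, 4 and 5 fragments. The groups overlapped, and the log2 interval of the ratio was -3.17 to 0.91 in males and -1.63 to 3.42 in females. A difference between the treatments was therefore not detectable at this depth. In each library, the exact 95% interval of Dio3 lay below that of Dio2, with an upper end of at most 0.946 FPKM.

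Crym (NCBI Gene 117024) encodes mu-crystallin, a cytosolic protein that binds T3, and it was the most abundant of the 7 genes and the one that varied least. Its FPKM was 77.45 in control male, 77.87 in control female, 83.14 in BPA male and 79.45 in BPA female. Both BPA libraries were above both controls, as were those of 18.7% of all genes tested, and the highest of the 4 values was 1.07 times the lowest. The log2 ratio from limma was 0.07 (standard error 0.0575, 95% interval -0.07 to 0.20, adjusted p = 0.591). Crym stood between percentiles 92.1 and 92.9 of the genes tested in the 4 libraries.

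Klf9 (NCBI Gene 117560) encodes a zinc finger transcription factor whose gene is switched on directly by T3. Its FPKM was 3.01 in control male, 4.41 in control female, 3.65 in BPA male and 4.02 in BPA female. The lowest and the highest value were both from control libraries, so the groups overlapped. The control female library was 46.5% above the control male library (log2 interval 0.11 to 1.00), a larger gap than between the treatments in either sex. BPA against control gave 21.3% in males (-0.18 to 0.74) and -8.84% in females (-0.55 to 0.28). Limma gave a log2 ratio of 0.06 (standard error 0.207, 95% interval -0.44 to 0.56, adjusted p = 0.903).

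Hr (NCBI Gene 60563) encodes Hairless, a corepressor that binds the thyroid hormone receptor and is itself induced by the hormone in developing brain. Its FPKM was 4.32 in control male, 4.11 in control female, 4.22 in BPA male and 4.85 in BPA female. The BPA female library was the highest and the other 3 lay close together, so the groups overlapped. BPA against control gave -2.31% in males (log2 interval -0.31 to 0.24) and 18% in females (-0.04 to 0.51). Limma gave a log2 ratio of 0.09 (standard error 0.150, 95% interval -0.27 to 0.46, adjusted p = 0.780).

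Nrgn (NCBI Gene 64356) encodes neurogranin, a calmodulin-binding protein of the postsynaptic side of forebrain neurons whose gene responds to thyroid hormone. Its FPKM was 52.35 in control male, 69.74 in control female, 54.05 in BPA male and 62.82 in BPA female. Both female libraries were above both male libraries, by 33.2% among controls (log2 interval 0.26 to 0.56) and by 16.2% with BPA (0.07 to 0.37), while the treatments overlapped. The share of all genes that separate by sex in this way was not computed, and a difference between the sexes was not tested. BPA against control gave 3.25% in males (-0.11 to 0.21) and -9.92% in females (-0.29 to -0.00). Limma gave a treatment log2 ratio of -0.05 (standard error 0.143, 95% interval -0.40 to 0.29, adjusted p = 0.878), which turned to 0.01 when each library was scaled to its median. The summed FPKM of 10 markers of cortical excitatory neurons, which express Nrgn, was 624.53 and 624.90 in the controls and 661.61 and 652.63 with BPA, males first, with median log2 ratios of 0.15 and 0.11. Within this list Slc17a7, the vesicular glutamate transporter gene, fell by 0.79 on the log2 scale (adjusted p = 0.0246 from limma), and Neurod2, a neuronal transcription factor gene, rose by 0.50 (adjusted p = 0.0444). Cdhr1, the marker of olfactory bulb projection neurons that reached the level for testing, fell by 2.04 (limma adjusted p = 0.00651), and the part of olfactory bulb tissue in these values was not tested.

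**Figure D3:**
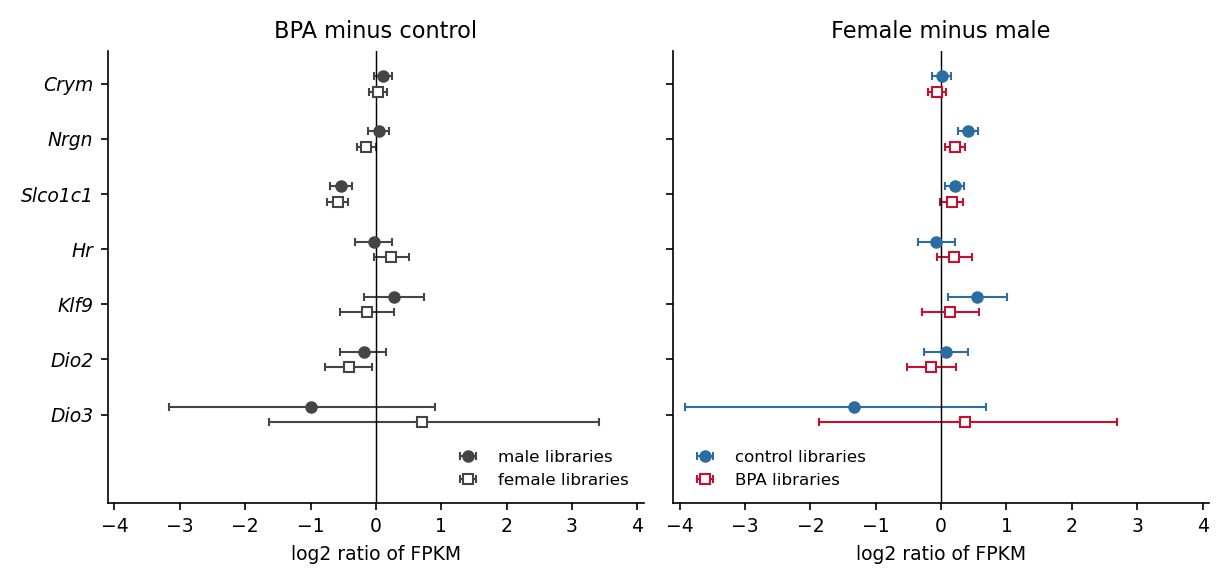
Log2 ratio of FPKM between libraries for the 7 genes, BPA against control within each sex (left) and female against male within each treatment (right), without a pseudocount and with exact 95% binomial intervals. On the left, the intervals of Slco1c1 lie below 0 in both sexes, from -0.70 to -0.37 and from -0.74 to -0.42, and on the right both intervals of Nrgn lie above 0.

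By median level over the 4 libraries, the order was Crym (78.7 FPKM), Nrgn (58.4), Slco1c1 (25.6), Hr (4.27), Klf9 (3.84), Dio2 (2.40) and Dio3 (0.28). The ranges of Hr and Klf9 overlapped and those of all other neighbours did not. Within a sex, 0 of the 6 genes tested differed by 1 or more on the log2 scale in either direction, against 2.99% of all genes tested in males and 3.99% in females. Slco1c1 alone differed by 0.5 or more, in each sex, against 11.2% of genes in males and 14.2% in females, and its ratios were -0.48 and -0.49 when libraries were scaled to their medians. The BPA and control libraries did not overlap for 3 of the 6 genes (Slco1c1 and Dio2 lower, Crym higher), against 50.7% of all genes tested. The median limma log2 ratio of the 6 was 0.00, against -0.04 over all genes tested.

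Among the other genes of the pathway, the transporter list held 8 genes, of which 6 were tested and 0 passed limma after adjustment, with a median log2 ratio of -0.16. Slc7a5, which encodes the large neutral amino acid transporter LAT1, had 44.43 and 48.17 FPKM in the controls and 65.21 and 54.07 with BPA. Its log2 ratio was 0.36 (standard error 0.101, limma adjusted p = 0.173), and the BPA male library stood above the other 3, without which the ratio was 0.22. The files list NCBI Gene 170698 as Slco1a2, and the RefSeq table names it Slco1a4. This organic anion transporter of brain capillaries was chosen for naming after its values were seen, and it had 1.46 and 2.29 FPKM in the controls and 0.55 and 1.19 with BPA (log2 ratio -0.81, standard error 0.364, limma adjusted p = 0.309).

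Of 15 receptors and coregulators, 14 were tested, and 1 passed limma as higher with BPA and 0 as lower. Thra, which encodes the thyroid hormone receptor alpha, was far more abundant than the 7 genes, with 363.67 and 373.32 FPKM in control male and female and 370.43 and 363.61 in BPA male and female. Its groups overlapped (log2 ratio -0.01, standard error 0.0562, limma adjusted p = 0.968), and the sign of so small a ratio turned when libraries were scaled to their medians (0.06). Thra overlaps Nr1d1 in the RefSeq table, and since no source used here states that counting used strand, reads of the pair may not be separable. Thrb, which encodes the beta receptor, had 3.01 and 2.85 FPKM in the controls and 2.59 and 2.78 with BPA (log2 ratio -0.11, standard error 0.180, limma adjusted p = 0.787). The gene that passed was Rxrg, which encodes retinoid X receptor gamma, a partner of thyroid hormone and retinoic acid receptors that is abundant in striatum. Control male had 6.11 FPKM and control female 8.0, against 24.56 in BPA male and 26.17 in BPA female, so that Rxrg rose with BPA (log2 ratio 1.79, standard error 0.134, limma adjusted p = 0.0219). Its adjusted p was 0.0699 without the BPA male library, 0.124 without the BPA female library, 0.113 without the filter on low values and 0.120 without a trend in the prior variance. Rxra and Rxrb, the other retinoid X receptors, had log2 ratios of -0.08 and 0.00. Of 7 striatal markers tested, 6 had both BPA libraries above both controls, against 18.7% of all genes tested, with medians of 0.49 in males and 0.50 in females, and the part of striatal tissue in the rise of Rxrg was not tested.

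Of 7 genes for hormone metabolism and binding, 2 reached the level for testing and 0 passed. The symbol Dio1, for the deiodinase of liver and kidney, did not occur among those listed. Sult1a1, a phenol sulfotransferase that can conjugate iodothyronines, had 5.10 FPKM in control male, 8.72 in control female, 4.11 in BPA male and 1.52 in BPA female. The female ratio was -2.19 on the log2 scale, the male ratio was -0.28 (log2 interval of the male libraries -0.92 to 0.29), and the limma value was -1.24 (standard error 0.419, adjusted p = 0.221), or -0.64 without the BPA female library. Whether the sexes differed was not tested, since no residual degrees of freedom remain for it.

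Of 17 other genes known to respond to thyroid hormone in brain, 10 were tested and 0 passed, with a median log2 ratio of -0.16. An unadjusted p under 0.05 was found for 3 of the 10, against 17.6% of all genes tested. These 3 were also the ones with both BPA libraries below both controls, against 32.0% of all genes tested, and those given here were named after their values were seen. Stard4, a cholesterol carrier gene, had a log2 ratio of -0.69 (limma adjusted p = 0.117), and Me1, the gene of malic enzyme, one of -0.39 (limma adjusted p = 0.123). The myelin basic protein gene Mbp had 14.91 and 15.64 FPKM in the controls and 12.92 and 16.42 with BPA (log2 ratio -0.07, limma adjusted p = 0.815). Of 6 genes of the thyroid axis, Tshr alone reached the level for testing, with a log2 ratio of 0.16 (limma adjusted p = 0.735).

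**Figure D4:**
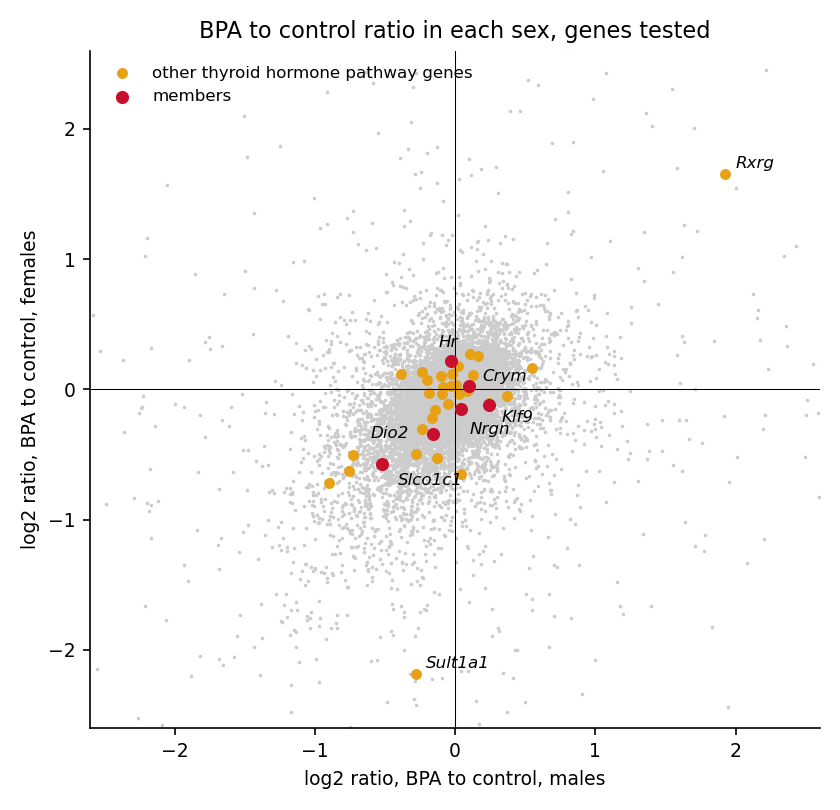
Log2 ratio of BPA to control in males (x axis) and in females (y axis) for the genes tested (grey), the other thyroid hormone pathway genes (orange) and the 6 genes tested of the 7 (red), with 107 genes outside the axes. Slco1c1 lies at -0.52 and -0.57, Rxrg at 1.92 and 1.65, and the other red points lie close to the centre of the grey cloud.

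The genes whose levels followed those of Slco1c1 most closely over the 4 libraries were Sipa1, with a root mean square difference of 0.0176 between the centred log2 values, and Nebl (0.0212). Sipa1 had 4.29 and 4.88 FPKM in the controls and 2.74 and 3.19 with BPA, and 246 genes came within 0.1 of Slco1c1 on this measure. For Nrgn the closest with a symbol was Ttc39c (0.0077), with 5.31 and 7.28 FPKM in the controls and 5.46 and 6.50 with BPA, and for Klf9 it was Cspg4 (0.0170). With 4 libraries, such likeness is common, and 4764 genes came within 0.1 of Crym.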

How the data were processed

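Per the labels and the study's methods, the authors mapped reads to the rat build rn6 and named HISAT, Bowtie2 and RSEM among the tools. Versions are not given in the sources used here. Per the file headers, what was deposited is FPKM, rounded to 2 decimals, and a listed 0.01, the minimum, was taken as 0 when rows were summed per gene and in ratios, and as listed in the summed FPKM of marker lists. FPKM of rows listed in all 4 libraries (16182 of 17419) was summed per gene. Of 3411 assembled transcripts, 272 received a gene through an accession in the RefSeq table of GRCr8, and each of the 7 genes rested on a single row with an NCBI Gene ID. In that table, Slco1c1, Klf9 and Hr overlap other gene models, and the strand setting of the counting is not given in the sources used here.

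To recover depth, a total was sought at which FPKM multiplied by (length minus 60 bases) gave whole fragments most closely. At these totals 88.8 to 91.0% of 1334 to 1389 scarce transcripts came within 0.1 of a whole number. The step was tested on simulated data, as was the limma fit. FPKM is no count, so the Poisson test of the study's methods was replaced by limma (version 3.58.1 in R 4.3.3). It was applied to log2(FPKM + 0.5) of the 13070 genes whose mean FPKM reached 1, fitting treatment alone and letting the prior variance follow the mean level, with 2 residual degrees of freedom and Benjamini-Hochberg adjustment over all genes tested. Other steps used Python 3.11.15, scipy 1.17.1 and matplotlib 3.10.9.

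The 7 genes, the pathway and marker lists and the tests were chosen with earlier results of these data known. Pathway genes were named where they passed limma, where an absolute log2 ratio reached 1 in a sex, or where they were on a short list that included Slc7a5, Thra, Thrb and Ttr. Some genes of the lists are not reported here. The summed FPKM of 5 oligodendrocyte lineage markers was 81.66 and 92.48 in the controls and 75.18 and 74.65 with BPA, males first, and that of 4 blood genes was 1514.54 and 1427.04 against 1484.05 and 1197.87.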

Additional observations from a re-analysis of the deposited data

Results flagged for a closer look

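The log2 ratio of BPA to control had opposite signs in the sexes for 4 of the 7 genes and for Thra, and with 1 library per sex and treatment the difference between the sexes was not tested. It was -0.41 in males and 0.23 in females for Dio3, 0.24 and -0.12 for Klf9, -0.03 and 0.21 for Hr, 0.05 and -0.15 for Nrgn, and 0.03 and -0.04 for Thra. With each library scaled to its median, the male ratio of Hr turned to 0.0095, the sign of the female one (0.29). In males the interval for counting error alone included 0 for all 5, and in females it included 0 for all but Nrgn, whose upper end was -0.0049. Signs were also opposite for other genes given with their values: Mbp (-0.20 in males, 0.07 in females), Tshr (0.37, -0.05), Rxrb (-0.10, 0.10), Slc2a1 (0.18, -0.20) and Mfsd2a (0.01, -0.06).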

How the results depend on the processing

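Of the 6 genes tested, 0 passed limma at an adjusted p under 0.05 in the analysis as reported, and 1 (Slco1c1) passed with sex as a term (a replicate block that pairs the libraries of a sex), 1 (Slco1c1) among genes with a mean FPKM of at least 5 and 1 (Slco1c1) among known genes only. Over all genes, 98 passed as reported, 148 with the sex block, 185 with the higher minimum and 477 of 10632 known genes. With limma, 0 passed without a filter on low values (2627 at an unadjusted p under 0.05) and 0 without a trend in the prior variance (2058 unadjusted). Leaving out 1 library at a time left 3 to 19 genes (19 without control male, 19 without control female, 8 without BPA male, 3 without BPA female) and 0 of the 6, where the treatment with a lone library is assumed to vary like the other. Without single libraries, the log2 ratio of Slco1c1 ran from -0.65 to -0.45, and the sign turned for Klf9 (-0.18 to 0.30) without control male or BPA female, Nrgn (-0.26 to 0.15) without control female or BPA male and Thra (-0.0246 to 0.0131) without either female library. It also turned with median scaling for Nrgn (0.0109) and Thra (0.0576), and for Hr in males (0.0095). Lowering the threshold for a pair of libraries from 1 to 0.5 called 1 of the 6 genes in males and 1 in females, and 1468 genes against 391 in males and 1857 against 521 in females. Without the filter, 617 genes reached 1 in males. The within-sex ratios of the 7 genes stayed inside their counting intervals under each alternative run. The depth limits Dio3, at 3 to 8 fragments. The labels give no replicate numbers, so sex was the available pairing.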
